A study of Mus musculus with 2 samples.

Results

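The replication-dependent histone genes were taken as all gene symbols in the deposited tables that name an H1f gene numbered 1 to 5 or a numbered H2ac, H2bc, H3c or H4c gene. This gave 63 of 25906 genes: 5 of linker histone H1, 17 of H2A, 17 of H2B, 12 of H3 and 12 of H4, with 53 of them on chromosome 13 and 10 on chromosome 3. They were described in mouse induced myogenic progenitor cells (iMPCs), which are muscle stem cell-like cells made from embryonic fibroblasts. There were 2 libraries of single cells, 1 from a MyoD-KO clone and 1 from a MyoD-WT clone. Per the labels, the fibroblasts of both were reprogrammed with overexpressed Myf6 together with forskolin, RepSox and CHIR99021. Myf6-independent colonies were then picked, and 1 clone of each genotype was used at passage 4. Both clones carry the strain label Myod1tm1Jae and grew with 5 µM forskolin, 5 µM RepSox, 3 µM CHIR99021 and 10 ng/mL bFGF. With 1 library and 1 clone for each genotype, no test was possible, and genotype, clone and library cannot be told apart.

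A dividing cell must package each new stretch of DNA in nucleosomes, and the bulk of the core histones (H2A, H2B, H3 and H4) and of the linker H1 is made in S phase from clustered, mostly intronless genes. Their mRNAs end in a conserved stem-loop that is bound by the stem-loop binding protein Slbp in place of a poly(A) tail, and they are degraded when DNA synthesis stops. A few of these genes can also give longer, polyadenylated mRNAs, which have been described in differentiated cells. In the myogenic lineage, Pax7-positive progenitors divide, whereas cells that switch on Myog leave the cycle and build the contractile apparatus.

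The stem-loop is shown first, because the capture of these genes depends on how their mRNAs end: the libraries were primed on poly(A), so that each value below counts captured molecules (unique molecular identifiers, UMIs), which may be a small and unequal share of each gene's mRNA. GENCODE M21 transcript models (GRCm38, another build than that of the files) were found for 63 of 63 members by gene ID. The longest coding model of 41 members held the stem-loop, at 21 to 58 bases after the stop codon with a median of 31. Its pattern occurred in 0.824% of 21838 other coding genes. The 16 bases took 8 forms, of which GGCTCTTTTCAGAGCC was shared by 23 members and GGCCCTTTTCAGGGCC by 6, all of them H4 genes. Sites are given below, 5′ to 3′, for members whose levels are described further on. Capitals mark the stem-loop, and a site that stops short after it stands where the model ends.

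H2ac24: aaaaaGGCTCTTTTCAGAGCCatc
H1f4: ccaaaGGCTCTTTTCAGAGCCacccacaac
H4c4: ccaaaGGCCCTTTTCAGGGCCactaccttc
H1f2: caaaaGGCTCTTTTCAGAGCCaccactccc
H4c8: ccaaaGGCCCTTTTCAGGGCCgcccacatt
H4c9: ttaaaGGCCCTTTTTAGGGCCaccacaaaa
H3c14: acaaaGGCTCTTTTCAGAGCCaccacagct
H3c15: acaaaGGCTCTTTTCAGAGCCaccacagct

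The models differed in how far they ran past this point. The H2ac24 model ended 3 bases after the stem-loop and that of H4c8 46 bases after it, whereas the models went on for 1153 bases in H1f4, 770 in H4c4, 840 in H1f2, 330 in H4c9, 1167 in H3c14 and 377 in H3c15. The model of H1f5 ended at the stop codon and so could hold no stem-loop. The H2bc4 model had 2 exons, ran 742 bases past the stop codon and held no stem-loop.

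Promoters of 57 members (58 promoters) were read from RefSeq, build GRCm38.p6, from 250 bases before to 50 bases after the start. The CCAAT box, the TATA box (searched as TATAAA), the octamer (searched as ATTTGCAT) and the H1 box (searched as AAACACA) were searched on both strands, with 0 overlaps between matches. CCAAT, or ATTGG on the other strand, stood in 86.2% of the members' promoters and in 37.3% of the 32793 others. It was in all of the H1, H2A, H2B and H3 promoters read and in 3 of 11 H4 promoters. TATAAA stood in 58.6% against 13.5%. ATTTGCAT stood in 22.4% against 1.70%, in 6 of 17 H2A and 7 of 15 H2B promoters and in none of the others. AAACACA stood in 13.8% against 7.17%, and in 4 of 5 H1 promoters. The promoters of 3 members whose levels changed differently between the cells described below are given here, with matches of the 4 motifs on either strand in capitals.

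H1f5 promoter, chr13:21780576-21780875, minus strand: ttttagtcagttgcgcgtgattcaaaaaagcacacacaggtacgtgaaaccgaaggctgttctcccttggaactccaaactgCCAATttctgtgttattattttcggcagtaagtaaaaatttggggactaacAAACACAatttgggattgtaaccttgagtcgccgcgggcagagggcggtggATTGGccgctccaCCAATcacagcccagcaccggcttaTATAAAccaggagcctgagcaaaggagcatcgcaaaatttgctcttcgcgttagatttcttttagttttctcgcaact
H2ac24 promoter, chr13:21833426-21833725, minus strand: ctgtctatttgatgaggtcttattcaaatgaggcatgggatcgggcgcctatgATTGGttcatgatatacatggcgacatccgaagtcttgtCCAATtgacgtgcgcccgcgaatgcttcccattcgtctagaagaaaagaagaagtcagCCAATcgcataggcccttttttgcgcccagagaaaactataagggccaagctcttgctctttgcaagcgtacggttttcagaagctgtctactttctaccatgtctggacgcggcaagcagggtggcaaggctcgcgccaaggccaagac
H1f2 promoter, chr13:23738557-23738856, plus strand: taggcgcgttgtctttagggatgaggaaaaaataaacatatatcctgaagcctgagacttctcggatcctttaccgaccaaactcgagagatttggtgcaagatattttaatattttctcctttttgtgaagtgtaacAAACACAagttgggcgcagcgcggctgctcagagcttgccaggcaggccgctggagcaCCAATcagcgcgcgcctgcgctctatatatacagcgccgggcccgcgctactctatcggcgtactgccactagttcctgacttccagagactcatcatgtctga

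After filtering, 5638 MyoD-KO and 7316 MyoD-WT cells remained, with medians of 40426.5 and 35515.5 UMIs per cell. The libraries shared 14 cell barcodes, 9 of them among the kept cells. Cells were gated by named genes: 2725 KO and 3981 WT cells were Pax7+ (at least 2 Pax7 UMIs, at most 2 Myog UMIs), 532 and 577 were Myog+ (at least 10 Myog UMIs, at most 1 Pax7 UMI), and 1068 and 1120 were muscle-rich (at least 3% of UMIs from 23 contractile genes, which no cell of the other gates had). Pax7 reached 216 CPM (UMIs per 1000000 UMIs of the same cells) in KO and 168 CPM in WT Pax7+ cells, and Myog 1406 and 1068 CPM in Myog+ cells. Myod1, the targeted gene, had 52.8 CPM in KO against 118 CPM in WT Pax7+ cells, lower but not absent. Which part of Myod1 is deleted is not given in the sources used here, and 3′ tags from outside that part check nothing.

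Of the 63 members, H2bc23, H2bc1 and H2ac1 had no UMI in either library. In Pax7+ cells, 30 members reached 2 CPM in the KO library and 47 in the WT library, and 55 did so in at least 1 of the groups described. The 5 highest members held 77.4% of the histone UMIs of KO and 77.8% of those of WT Pax7+ cells. By the mean of both libraries H2ac24, an H2A gene, came first, with 274 CPM in KO against 862 CPM in WT cells. H1f5, a linker histone gene, had 373 CPM in KO against 242 CPM in WT cells. Then came H1f4 with 106 and 173 CPM, H2ac8 with 80.6 and 150 CPM and H4c4 with 34.8 and 88.8 CPM in KO and WT cells. The order is one of captured UMIs and not of mRNA made. Several genes are near-identical copies of each other (most H4 genes, H2ac18 and H2ac19, H2bc23 and H2bc24, and H2ac24 among H2A genes), and the gene body of H2bc6 spans part of that of H1f4, so single counts of these are uncertain. In the GENCODE M21 models, Gm20634 covers all 1825 bases of H3c14 and 529 of 586 bases of H2ac18 on the same strand. Gm42743 covers all 381 bases of H2bc18. Neither was among the counted genes, so single counts of these members are uncertain too. H4c9, H3c14, H3c15, H3c4, H2ac4, H2ac6, H2ac10 and, outside the histone genes, Slbp are named below after their values were seen.

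Ranked by Mki67 plus Top2a, which mark cells from S phase to mitosis, the Pax7+ cells climbed in histone level in both clones. The summed level of the 63 members was 165, 199, 463, 1325 and 2799 CPM in the KO library and 349, 1245, 1953, 2520 and 3025 CPM in the WT library, by quintiles from the lowest rank to the highest. The highest quintile stood 17.0 times above the lowest in KO (95% interval 16.3 to 17.6) and 8.66 times in WT (8.46 to 8.86). Such intervals, here and below, cover counting error only. The quintiles were taken within each library, and the same place held different levels of the ranking genes: Mki67 plus Top2a was 9.28, 90.5, 358, 941 and 1623 CPM by KO quintiles and 72.8, 325, 616, 861 and 1234 CPM by WT quintiles. The KO and WT ratios therefore span different ranges of Mki67 plus Top2a. Median depth also differed along this rank, at 46777 UMIs in the highest and 31943 in the lowest KO quintile, and at 41348.5 and 28232 in WT. With cells of 20000 to 60000 UMIs alone the ratio was 18.0 in KO and 8.57 in WT. The part of depth in the result was not tested.

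Nearly every measured histone gene moved this way. Of 39 members at 2 CPM or more in either extreme KO quintile, 37 were at least 2-fold higher in the highest quintile, beside 5.20% of all 11600 genes measured so, and 1 was at least 2-fold lower, beside 4.55%. In WT, 51 of 53 were higher, beside 3.17% of 10789 genes, and 0 were lower, beside 2.63%. A member low in one quintile passes the minimum only through the quintile where it is high, so these counts describe the measured members and not all 63. The median log2 ratio was 4.83 over the members and 0.02 over all genes in KO, and 2.87 and 0.03 in WT.

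The H2A gene H2ac24 and the linker gene H1f5 had the most UMIs. H2ac24 had 13.6, 24.6, 107, 349 and 698 CPM by KO quintiles and 127, 609, 944, 1135 and 1209 CPM by WT quintiles. H1f5 had 21.2, 29.3, 136, 472 and 959 CPM by KO quintiles and 34.8, 152, 236, 313 and 389 CPM by WT quintiles. The ratio of the highest to the lowest quintile was 51.4 (45.4 to 58.6) for H2ac24 and 45.3 (40.9 to 50.2) for H1f5 in KO, and 9.54 (9.19 to 9.92) and 11.2 (10.4 to 12.0) in WT. Both genes climbed at each step in both clones, and the lowest WT quintile held more of both than the lowest KO one. H1f1, another linker gene, had 61.2 CPM in the highest and 1.15 CPM in the lowest KO quintile, and 21.3 and 2.73 CPM in the WT ones. H2ac4 had 24.5 and 0.329 CPM in the KO quintiles, a ratio of 74.4 (34.0 to 204). H2ac10 and H3c2 had no UMI in the lowest KO quintile, and stood at least 78.1-fold and 28.5-fold higher in the highest, taking 3 counts over the lowest quintile as the limit.

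By family, the KO ratio of highest to lowest quintile was 22.2 for H1, 41.5 for H2A, 1.95 for H2B, 23.7 for H3 and 8.60 for H4. In WT it was 8.50, 9.82, 5.27, 6.33 and 7.77. Among H2B genes in KO, H2bc4 ran the other way, with 48.6, 34.6, 21.8, 15.2 and 17.0 CPM by KO quintiles, a ratio of 0.349 (0.311 to 0.392). In WT, H2bc4 stayed between 8.48 and 10.2 CPM in all quintiles, a ratio of 1.17 (0.976 to 1.40). H4c9, an H4 gene, also moved little, with 11.2 CPM in the highest and 7.25 CPM in the lowest KO quintile and 8.01 and 4.19 CPM in the WT ones. These were the only measured members that missed a 2-fold rise, and they were the same pair in both libraries.

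**Figure D1:**
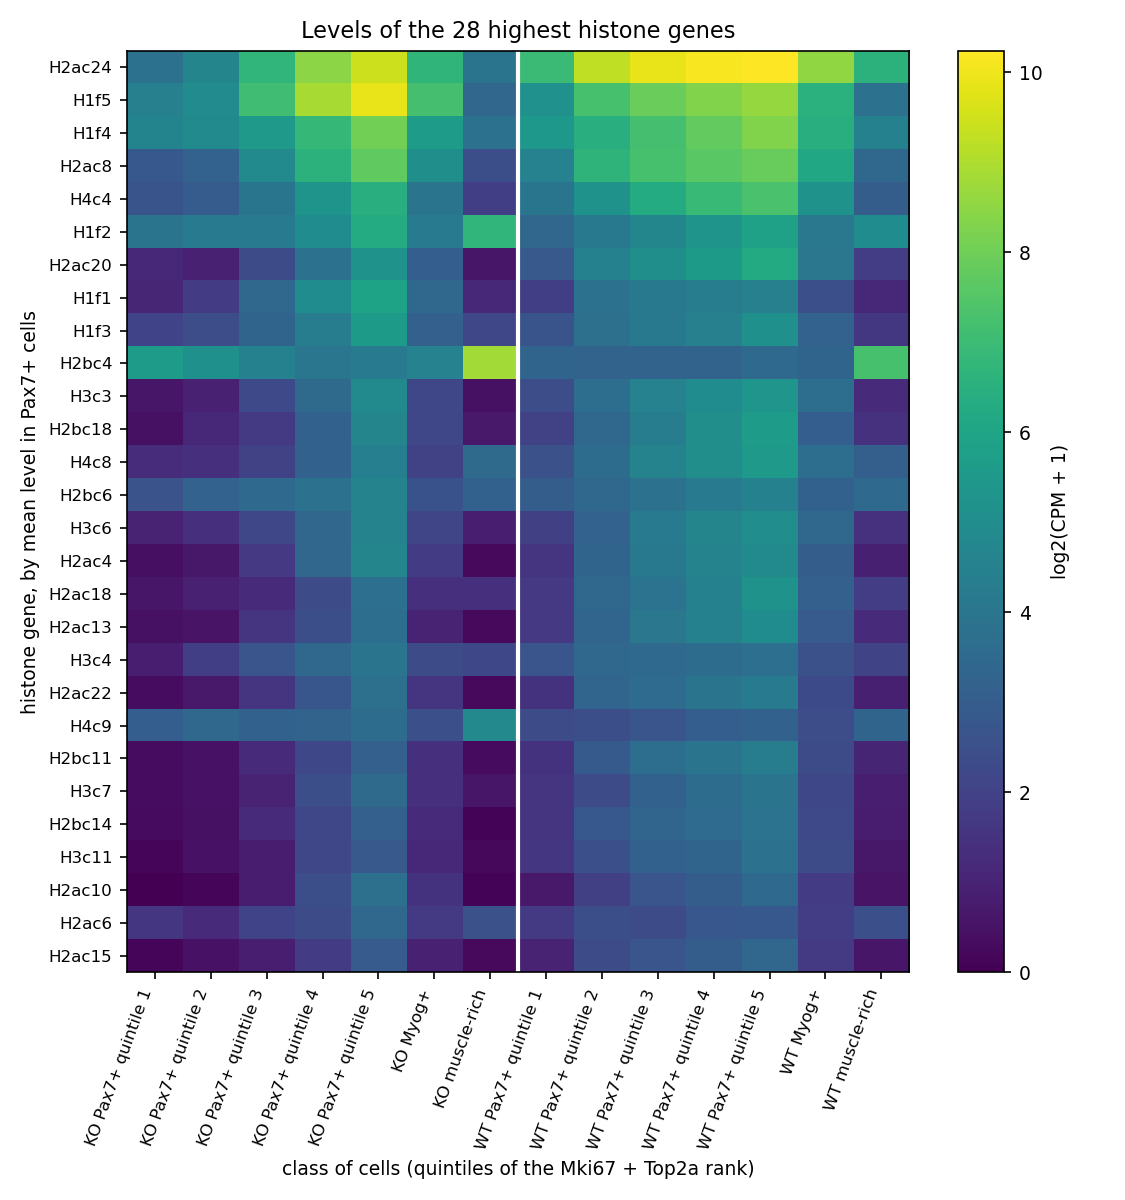
Level of the 28 highest members (rows), as log2 of CPM + 1, in the Pax7+ cells by quintiles of Mki67 plus Top2a from lowest (1) to highest (5), and in Myog+ and muscle-rich cells, for the KO clone (left) and the WT clone (right). Most rows brighten from quintile 1 to quintile 5 and are darker in muscle-rich cells than in quintile 5, whereas H2bc4 is brightest in muscle-rich cells.

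Cells within a quintile differed from each other. In the highest KO quintile the summed level of single cells had quartiles of 1740, 3242 and 4073 CPM, and in the lowest one of 77.4, 131 and 216 CPM. Of the highest KO quintile 14.7% of cells had under 300 CPM, and of the lowest 86.4%. In WT these shares were 0.628% and 60.0%. After thinning each cell to 5000 UMIs, H1f5 was found in 83.3% of cells of the highest and 9.36% of the lowest KO quintile, and in 79.6% and 13.0% in WT. Without thinning the shares were 97.4% and 33.0% in KO and 99.1% and 44.2% in WT. Muscle-rich cells, thinned alike, gave 1.68% in KO and 3.76% in WT, with median depths of 48155 and 37952 UMIs before thinning.

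The second rank used Cdc6, Ung, Ccne2 and Hells, genes switched on around the G1/S transition and used in licensing, repair and early replication. Along it the summed histone level did not climb from the lowest to the highest quintile, although some members did in KO, as given below. The summed level was 1006, 1221, 1293, 1072 and 1004 CPM by KO quintiles and 2559, 2451, 2078, 1545 and 1027 CPM by WT quintiles, from the lowest rank to the highest. The ratio of the highest to the lowest quintile was 0.998 (0.979 to 1.02) in KO and 0.401 (0.396 to 0.407) in WT. The KO value has no settled side: it was 0.736 with Ccne2 left out of the rank and 1.23 with Hells left out. In WT all ranks with 1 gene left out gave ratios under 1, between 0.353 and 0.540.

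**Figure D2:**
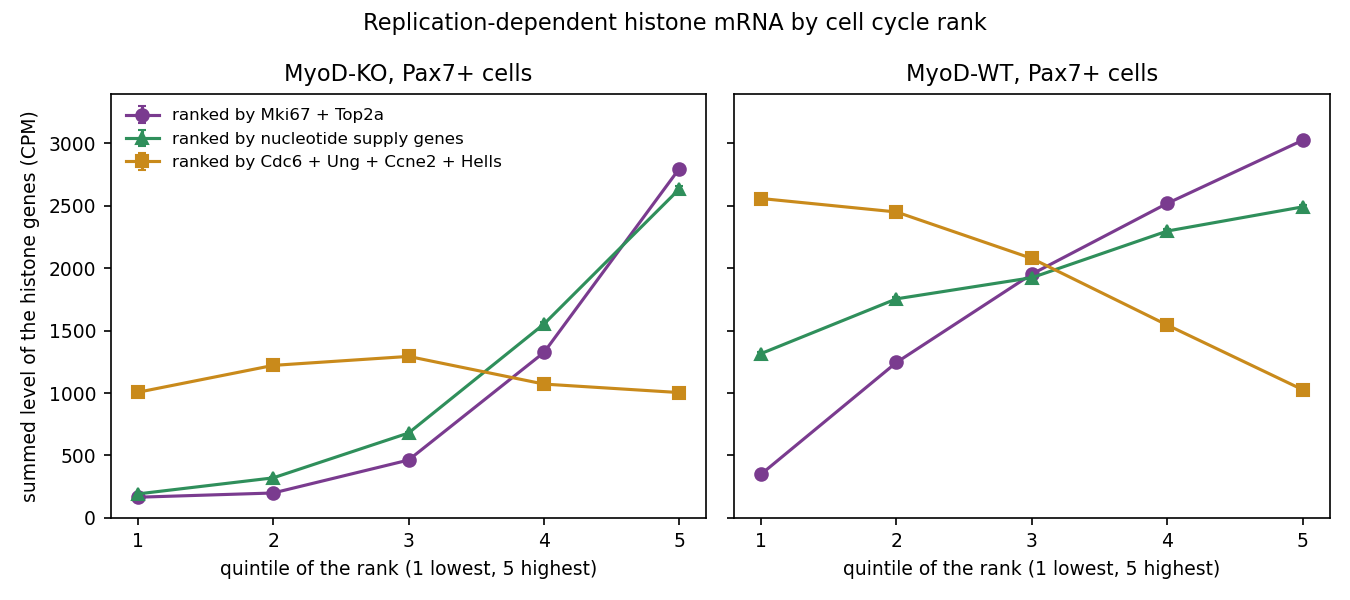
Summed CPM of the 63 members (y axis) in quintiles of the Pax7+ cells (x axis, lowest to highest) under the ranks by Mki67 plus Top2a, by Cdc6, Ung, Ccne2 and Hells and by 9 deoxynucleotide supply genes, with the KO clone on the left and the WT clone on the right; bars on the points are 95% Poisson intervals. The Mki67 plus Top2a rank climbs in both clones, to 2799 CPM in KO against 3025 CPM in WT, whereas the Cdc6, Ung, Ccne2 and Hells rank stays between 1004 and 1293 CPM in KO and falls to 1027 CPM in WT.

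In KO, 0 of 30 measured members were at least 2-fold higher in the highest quintile of this rank, beside 4.10% of 11548 genes, and 3 (H4c8, H3c7 and H2bc4) were lower, beside 3.34%. In WT, 0 of 51 were higher, beside 2.09% of 10707 genes, and 37 were lower, beside 2.07%. By family the WT ratio was 0.301 for H4 and between 0.396 and 0.424 for the others. H2bc18 had 8.42 CPM in the highest and 40.8 CPM in the lowest quintile, a ratio of 0.206 (0.178 to 0.238), and H4c4 had 32.1 and 127 CPM, a ratio of 0.254 (0.235 to 0.273). In KO, H4c4 had 23.8 and 37.1 CPM (0.642, 0.574 to 0.719), but H1f1 had 30.8 and 16.6 CPM (1.86, 1.63 to 2.12) and H1f5 366 and 299 CPM (1.22, 1.18 to 1.27). These KO ratios depend on the genes of the rank: with Cdc6, Ung, Ccne2 or Hells left out, H1f5 had 1.34, 1.31, 0.857 and 1.47, on either side of 1. H1f1 had 2.05, 1.97, 1.20 and 2.25, H4c4 0.714, 0.677, 0.544 and 0.808, and H4c8 (0.470 with all 4 genes) 0.504, 0.525, 0.415 and 0.551 in KO. These ranks were added after the values were seen.

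Other genes placed the same cells. The DNA replication machinery (helicase, polymerase and loading factor genes) was at least 2-fold higher in the highest quintile for 31 of 38 genes in KO and 21 of 38 in WT. Over all genes these shares were 4.10% in KO and 2.09% in WT. Pcna, the sliding clamp, had 332 and 88.6 CPM in the highest and lowest KO quintiles, and 288 and 129 CPM in the WT ones. Of the genes for histone mRNA processing and histone chaperones, 8 of 14 measured were higher in KO and 4 of 14 in WT, beside the same shares. Slbp had 174 CPM in the highest and 51.5 CPM in the lowest KO quintile (3.38, 3.16 to 3.62), and 134 and 70.5 CPM in WT (1.90, 1.80 to 2.01). The histone chaperone gene Nasp had 298 and 119 CPM in KO and 395 and 196 CPM in WT. G2 and mitosis genes went the other way, with 18 of 25 lower in KO and 20 of 25 in WT, beside 3.34% and 2.07% of all genes. Among them was the kinetochore gene Cenpf, at 76.6 and 370 CPM in KO and 89.5 and 346 CPM in WT. Mki67 plus Top2a was itself 451 CPM in the highest and 715 CPM in the lowest KO quintile of the rank, and 308 and 906 CPM in WT.

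Crossing both ranks showed the histone level in each combination. Within the highest Mki67 plus Top2a quintile, the KO level was 2381, 2752, 3033, 2821 and 3432 CPM by quintiles of the replication rank, and within the fourth it was 1017, 1098, 1225, 1343 and 2151 CPM. Within the lowest it was 168, 147, 169, 164 and 181 CPM. In WT the highest quintile held 3141, 3092, 2923, 2565 and 2158 CPM, the last from 7 cells, and the lowest 153, 238, 286, 362 and 461 CPM. The KO value of 3432 CPM came from 43 cells, and the crossing was not repeated with genes left out of the replication rank. Within the highest and the fourth Mki67 plus Top2a quintile, the KO level was higher at the top of the replication rank than at its bottom. In the highest it did not rise at each step. The WT level fell along the replication rank within the highest Mki67 plus Top2a quintile and rose within the lowest. Whether the clones differ in this was not tested.

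**Figure D3:**
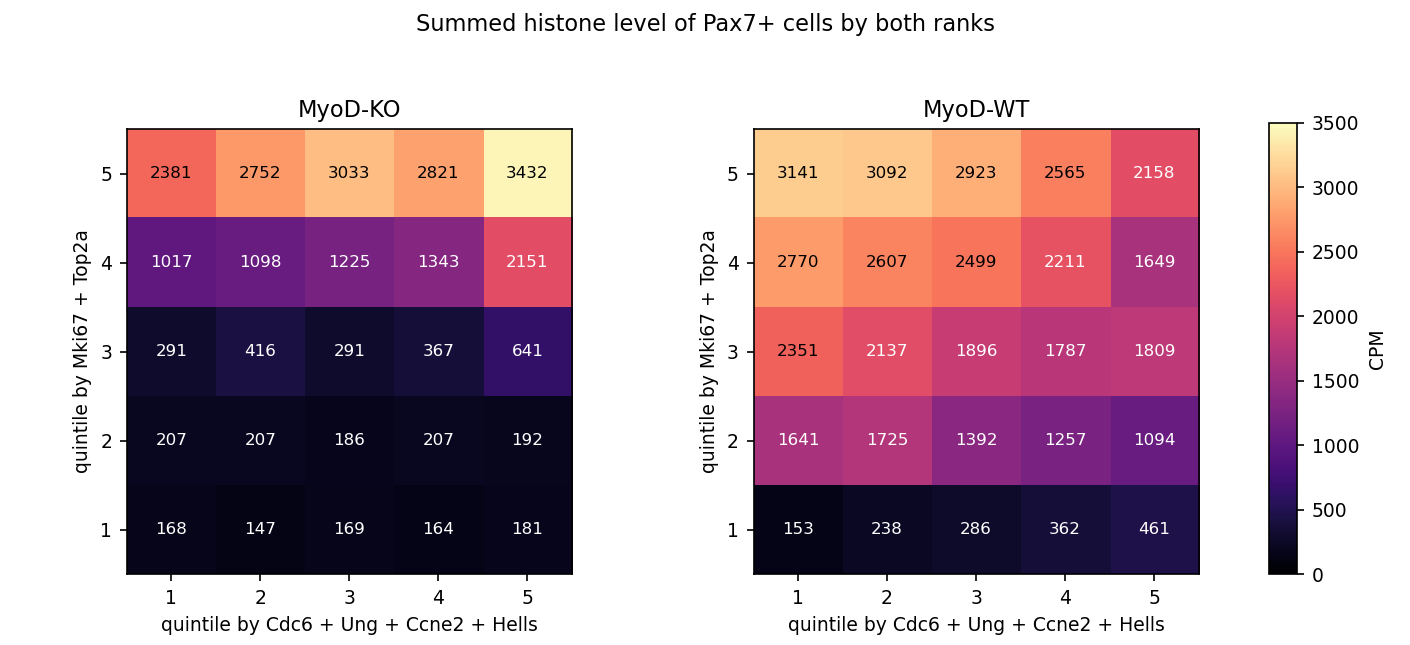
Summed CPM of the 63 members in Pax7+ cells split by quintiles of Cdc6, Ung, Ccne2 and Hells (x axis) and of Mki67 plus Top2a (y axis), KO left and WT right; colour and printed numbers give the CPM. Levels run from 147 to 3432 CPM in KO and from 153 to 3141 CPM in WT, and change more from bottom to top than from left to right.

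A rank by 9 genes of deoxynucleotide supply (among them Rrm1 and Rrm2, subunits of ribonucleotide reductase, and Tyms, thymidylate synthase) was added after these values were seen. The histone level was 192, 320, 680, 1553 and 2635 CPM by KO quintiles, a ratio of 13.8 (13.3 to 14.2), and 1316, 1755, 1924, 2298 and 2492 CPM by WT quintiles, a ratio of 1.89 (1.87 to 1.92). In KO 37 of 39 measured members were at least 2-fold higher, beside 6.85% of all genes, and 1 was lower, beside 5.69%. In WT 9 of 49 were higher, beside 2.24%, and 0 lower, beside 2.14%. H1f1 led the WT members with 27.5 CPM in the highest and 5.94 CPM in the lowest quintile, whereas H4c4 was level at 79.1 and 80.9 CPM.

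The highest Mki67 plus Top2a quintile was split further by Ccnb1, Cdc20, Plk1 and Aurka, which peak from G2 to mitosis, also after values were seen. By quintiles of this split from low to high, 109 cells each, the KO histone level was 3938, 3818, 3118, 2064 and 1324 CPM, and the ratio of highest to lowest was 0.336 (0.327 to 0.345). In WT it was 3556, 3192, 3057, 2674 and 2730 CPM, with a ratio of 0.768 (0.753 to 0.783). Of 46 measured members in KO, 31 were at least 2-fold lower at the mitotic end, beside 5.03% of genes, and 0 were higher, beside 2.87%. In WT 3 of 54 were lower, beside 2.67%, and 0 higher, beside 1.82%. H1f1 had 19.97 CPM at the mitotic end and 113 CPM at the other in KO, and 12.7 and 35.0 CPM in WT, and H1f5 had 403 and 1441 CPM in KO and 333 and 488 CPM in WT. Slbp was lower there too, with 46.8 and 173 CPM in KO and 56.8 and 115 CPM in WT. H4c4 differed from the linker genes, with 57.2 and 90.9 CPM in KO and 168 and 147 CPM in WT.

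In Myog+ cells the histone genes were lower than in Pax7+ cells, at 471 against 1123 CPM in KO and 848 against 1949 CPM in WT. The ratios were 0.419 (0.411 to 0.427) and 0.435 (0.428 to 0.442). Of 30 measured members in KO, 22 were at least 2-fold lower, beside 18.6% of 11616 genes, and 0 were higher, beside 6.81%. In WT 34 of 47 were lower, beside 15.3% of 10854 genes, and 0 higher, beside 7.52%. H2ac24 had 104 CPM in Myog+ against 274 CPM in Pax7+ cells of KO, and 367 against 862 CPM in WT. H2bc4 was nearest to level, with 22.6 against 25.5 CPM in KO (0.884, 0.804 to 0.970) and 8.84 against 8.91 CPM in WT (0.991, 0.844 to 1.16).

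This lower mean came from an uneven group. Myog+ cells with 0, 1 to 4 and 5 or more Mki67 or Top2a UMIs had 85.0, 107 and 1296 CPM in KO and 96.2, 159 and 2035 CPM in WT, a split added after the first values were seen. The KO classes held 188, 200 and 144 cells and the WT classes 198, 195 and 184. Myog+ cells with 0 and with 1 to 4 such UMIs had lower histone levels than the lowest Pax7+ quintile, at 165 CPM in KO against 349 CPM in WT. These groups are not matched in Mki67 plus Top2a. It was 0 and 42.8 CPM in the 2 KO classes against 9.28 CPM in the KO quintile. In WT it was 0 and 55.8 CPM against 72.8 CPM. The part of this was not tested. In Myog+ cells with 5 or more, H1f5 reached 451 CPM in KO and 237 CPM in WT, against 5.93 and 3.66 CPM in those with 0. H2ac24 reached 316 and 932 CPM, against 5.93 and 12.9 CPM. Depth differed as well, with medians of 49380.5 UMIs at 5 or more and 39826 at 0 in KO, and 40556 and 31590 in WT, so the cut in UMIs favours deeper cells; its part was not tested.

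Of the members measured in muscle-rich against Pax7+ cells, most were lower in muscle-rich cells of both clones, and H2bc4 was far higher. H1f5 had 9.54 CPM in muscle-rich against 373 CPM in Pax7+ cells of KO, and 13.6 against 242 CPM in WT. H2ac24 had 14.2 against 274 CPM in KO and 96.0 against 862 CPM in WT, and H4c4 2.78 against 34.8 CPM and 7.18 against 88.8 CPM. Set against the lowest Mki67 plus Top2a quintile of the Pax7+ cells, H2ac24 was close in KO, with 14.2 against 13.6 CPM, and had 96.0 against 127 CPM in WT. H1f5 had 9.54 against 21.2 CPM in KO and 13.6 against 34.8 CPM in WT. The H2A genes summed to 26.8 against 25.2 CPM in KO and to 121 against 170 CPM in WT. H2bc4, an H2B gene, had 457 CPM (451 to 463) in muscle-rich against 25.5 CPM in Pax7+ cells of KO, a ratio of 17.9 (17.2 to 18.6). In WT it had 153 CPM (149 to 156) against 8.91 CPM, a ratio of 17.1 (16.1 to 18.2). H2bc4 was also the highest member in muscle-rich cells of both clones. Thinned to 5000 UMIs, 82.1% of KO and 44.6% of WT muscle-rich cells had an H2bc4 UMI, against 12.7% and 4.62% of Pax7+ cells. Unthinned, these were 95.7% and 80.6% against 51.9% and 27.8%. Thinning left out 118 KO and 29 WT muscle-rich cells with fewer UMIs.

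Of 32 measured members in KO, 5 were at least 2-fold higher in muscle-rich cells (H3c15, H3c14, H4c9, H2bc4 and H1f2), beside 12.0% of 11844 genes, and 24 were lower, beside 35.3%. In WT 3 of 49 were higher (H3c15, H3c14 and H2bc4), beside 13.8% of 11187 genes, and 42 were lower, beside 29.9%. The median log2 ratio was -3.59 over the measured members and -0.57 over all genes in KO, and -3.22 and -0.48 in WT. With the lowest Mki67 plus Top2a quintile in place of all Pax7+ cells, the counts were different. In KO 8 of 15 measured members were then at least 2-fold higher in muscle-rich cells, beside 11.7% of 11864 genes, and 1 (H1f5) was lower, beside 33.5%. In WT 5 of 25 were higher, beside 13.0% of 11248 genes, and 9 were lower, beside 27.9%. The median log2 ratio was then 1.19 over the measured members and -0.54 over all genes in KO, and -0.72 and -0.47 in WT. A member low in one group passes the minimum only through the group where it is high. These counts and medians therefore describe the measured members, which differ between the 2 comparisons, and not all members. Among those measured, the share of lower members was above that of all genes against all Pax7+ cells. Against the lowest quintile it was not above it in KO. In WT the share there was 36% of the measured members, near the 27.9% of all genes.

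H1f2, a linker gene, had 106 CPM in muscle-rich against 34.2 CPM in Pax7+ cells of KO (3.10, 2.97 to 3.23), but 30.4 against 31.3 CPM in WT (0.971, 0.914 to 1.03). H4c9 had 27.5 against 9.09 CPM in KO (3.03, 2.79 to 3.29) and 8.74 against 6.12 CPM in WT (1.43, 1.27 to 1.61). The H3 genes H3c14 and H3c15 were at low levels, with 4.45 against 0.486 CPM and 4.12 against 0.115 CPM in KO, and 3.05 against 1.20 CPM and 2.99 against 0.251 CPM in WT. H2ac6 and H2bc6 were less than 2-fold apart, with ratios of 1.04 and 0.633 in KO and 0.982 and 0.698 in WT. H4c8 had 10.8 against 7.86 CPM in KO and 7.49 against 25.3 CPM in WT.

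Summed over all members, muscle-rich cells had 689 against 1123 CPM in Pax7+ cells of KO, a ratio of 0.613 (0.606 to 0.621), and 405 against 1949 CPM in WT, a ratio of 0.208 (0.204 to 0.211). Without H2bc4 the ratios were 0.211 and 0.130. The H2B genes held 68.2% of the histone UMIs of KO and 42.4% of those of WT muscle-rich cells, against 5.82% and 5.07% in Pax7+ cells. Set against the lowest Mki67 plus Top2a quintile in place of all Pax7+ cells, the muscle-rich level was higher, 4.18 times in KO and 1.16 times in WT. The direction of the sum thus depends on which Pax7+ cells are taken. In WT it also rests on the H2B genes, the only family that was higher there, at 5.53 times. The H1, H2A, H3 and H4 ratios were 0.726, 0.712, 0.717 and 0.864 in WT. In KO they were 2.10, 1.06, 3.59 and 2.79, beside 8.33 for H2B.

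Across all kept cells, in 6 steps of the share of UMIs from contractile genes (under 0.5%, from 0.5%, 1%, 3%, 6% and 10%; the first without a lower limit), H2bc4 had 33.7, 30.0, 48.7, 235, 395 and 566 CPM in KO and 9.09, 10.5, 26.2, 89.0, 174 and 300 CPM in WT. It was highest at the last step in both clones. H1f2 had 30.4, 18.3, 29.0, 71.3, 94.8 and 124 CPM in KO and 29.2, 25.6, 18.7, 22.2, 33.1 and 49.8 CPM in WT, lower at the middle steps than at the last in both. H1f5 had 321, 165, 139, 15.1, 17.7 and 1.09 CPM in KO, nearly absent at the last step. The genes that make up this share are the gate itself, so the steps describe the cells and test nothing.

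**Figure D4:**
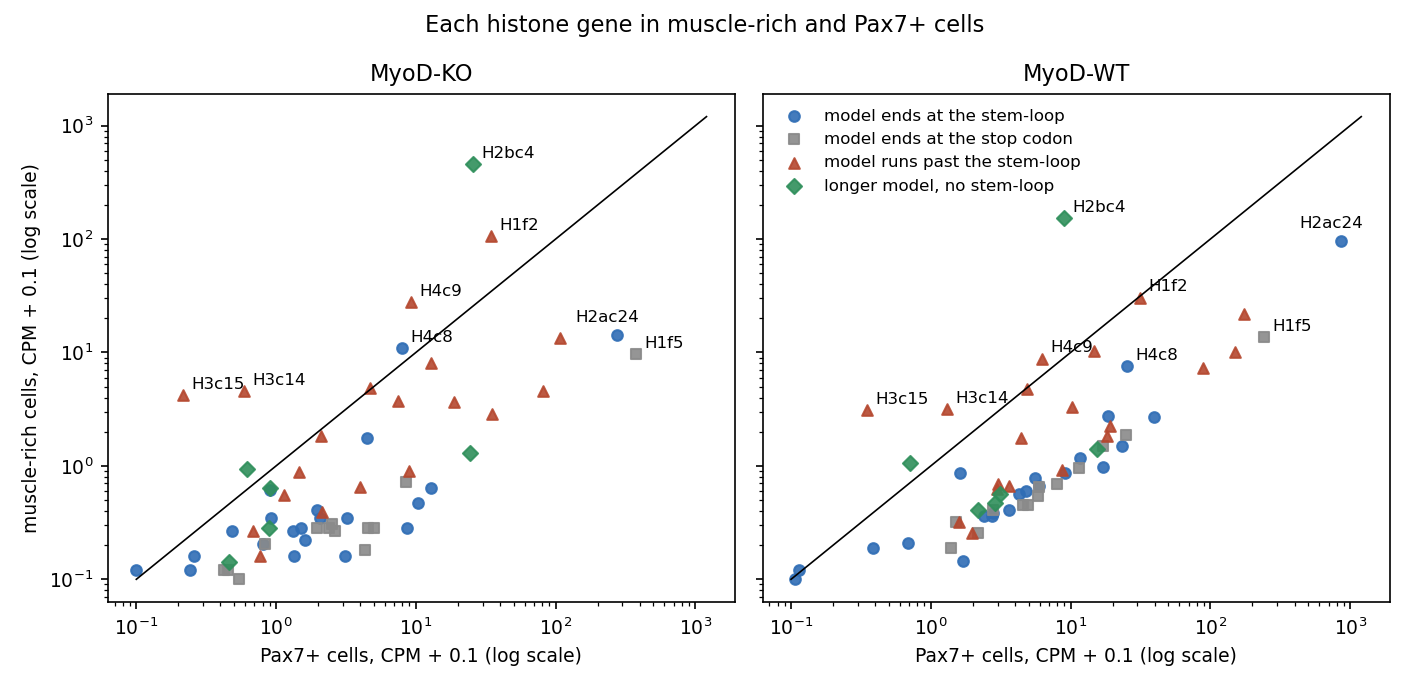
Level of each member in muscle-rich cells (y axis) against Pax7+ cells (x axis), CPM + 0.1 on log axes, KO left and WT right, coloured by where the longest GENCODE M21 model ends; the diagonal marks equal levels. Most members lie below the diagonal, and H2bc4, with 457 against 25.5 CPM in KO and 153 against 8.91 CPM in WT, lies far above it.

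Some muscle-rich cells had Mki67 or Top2a UMIs. Those with 0, 1 to 4 and 5 or more Mki67 or Top2a UMIs had 700, 613 and 815 CPM of histone UMIs in KO and 277, 273 and 930 CPM in WT, from 806, 204 and 58 KO cells and 730, 259 and 131 WT cells. In WT H2ac24 rose with them, at 6.95, 23.0 and 439 CPM, and in KO at 3.11, 4.79 and 114 CPM. H2bc4 did the opposite, with 489, 412 and 360 CPM in KO and 168, 141 and 121 CPM in WT. Cells with 5 or more such UMIs were also the deepest, with medians of 79790.5 UMIs in KO and 63597 in WT, against 43071 and 35368 at 0. With the 6% highest doublet scores left out, the ratio of all muscle-rich to Pax7+ cells was 0.604 in place of 0.613 in KO. In WT it was 0.154 in place of 0.208. Whether some of the cells with 5 or more such UMIs are droplets with more than 1 cell was not tested.

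The measured members were also split by where their models end, a split chosen on the members that were higher in muscle-rich cells, so its counts are a description and nothing is read from them. Beside them stand the 12.0% of all genes in KO and 13.8% in WT that were higher than in all Pax7+ cells. Of members that end within 100 bases of the stem-loop, 0 of 8 measured were higher in KO and 0 of 16 in WT, with 7 and 16 lower. Of members whose model ends within 20 bases of the stop codon, 0 of 8 and 0 of 11 were higher, and all were lower. Of those whose model runs over 100 bases past the stem-loop, 4 of 14 were higher in KO (H3c15, H3c14, H4c9 and H1f2) and 2 of 17 in WT (H3c15 and H3c14), with 8 and 11 lower. Summed, this last class had 187 against 329 CPM in KO and 111 against 543 CPM in WT, whereas the class that ends at the stem-loop had 30.2 against 336 CPM and 117 against 1042 CPM. H2bc4 belonged to the longer models without a stem-loop. The split has few members a class, was not tested, and the models may differ from the annotation the submitters counted on.

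Genes that serve histone supply fell in the same cells. In muscle-rich against Pax7+ cells, 11 of 14 measured genes of histone mRNA processing and chaperones were at least 2-fold lower in KO and 12 of 14 in WT. Beside this and the counts below stand the 35.3% of all genes in KO and 29.9% in WT that were lower. Slbp had 14.6 against 93.6 CPM in KO and 22.8 against 96.3 CPM in WT. The replication machinery was lower for 37 of 38 genes in KO and 38 of 38 in WT, and the G2 and mitosis genes for 25 of 25 in both. Genes on the list of replication-independent and variant histones were lower for 9 of 11 in KO and 9 of 12 in WT. H3f3a, one of the genes for H3.3, had 1400 against 1961 CPM in KO and 1265 against 1366 CPM in WT, less than 2-fold apart, whereas H2az1, the H2A.Z gene, had 435 against 1484 CPM and 523 against 2176 CPM. The cell cycle inhibitor gene Cdkn1a had 1762 against 309 CPM in KO and 1231 against 98.4 CPM in WT.

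Between the clones, KO Pax7+ cells had 1123 CPM (1117 to 1130) of histone UMIs and WT Pax7+ cells 1949 CPM (1942 to 1956), a ratio of 0.576 (0.573 to 0.580). Without H2ac24, whose single count is uncertain, the ratio was 0.781 (0.775 to 0.788). The median cell had 252 CPM in KO against 1918 CPM in WT, and 56.4% of KO and 20.2% of WT cells had under 300 CPM. Of 47 measured members, 30 were at least 2-fold lower in KO, beside 4.68% of 11529 genes, and 1 (H2bc4) was higher, beside 19.1%. The median log2 ratio was -1.28 over the measured members and 0.15 over all genes.

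The families did not move alike. H2A genes had 404 CPM in KO against 1141 CPM in WT Pax7+ cells (0.354), H4 genes 58.8 and 143 CPM (0.412), H3 genes 39.3 and 85.2 CPM (0.461) and H2B genes 65.4 and 98.8 CPM (0.661). H1 genes had 556 CPM in KO against 481 CPM in WT (1.16), and made up 49.5% of the histone UMIs of KO against 24.7% of those of WT cells. By classes of Mki67 plus Top2a, given below, H1 genes were lower in KO in some and higher in others. H2ac24 had a ratio of 0.318 (0.314 to 0.322), H4c8 of 0.311 (0.289 to 0.334) and H4c4 of 0.392 (0.378 to 0.406). H1f5 was at 1.54 (1.52 to 1.56) and H1f1 at 1.56 (1.48 to 1.65), with 24.1 CPM in KO against 15.5 CPM in WT. H2bc4 had 25.5 CPM in KO against 8.91 CPM in WT, a ratio of 2.87 (2.69 to 3.06).

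In the highest Mki67 plus Top2a quintile of each library the summed level was 2799 CPM in KO against 3025 CPM in WT (0.925, 0.916 to 0.934), and in the lowest 165 and 349 CPM (0.472, 0.453 to 0.493). These quintiles are not matched between the libraries: Mki67 plus Top2a was 1623 CPM in KO against 1234 CPM in WT in the highest and 9.28 against 72.8 CPM in the lowest. In classes with the same limits in both libraries (Mki67 plus Top2a under 200, from 200, from 500 and from 1000 CPM), the KO to WT ratio was 0.519, 0.307, 0.429 and 0.820, with the KO sum lower in each. The H1 ratio was 0.784, 0.629, 0.907 and 1.54, lower in KO in all but the highest class. The H2B ratio was 1.64, 0.724, 0.436 and 0.599, whereas H2A, H3 and H4 genes were lower in KO in each class. Within the classes Mki67 plus Top2a still differed, at 60.9, 316, 766 and 1473 CPM in KO and 84.0, 351, 746 and 1236 CPM in WT. The classes held 1179, 347, 427 and 772 of the 2725 KO cells and 880, 759, 1550 and 792 of the 3981 WT cells. In the highest quintile, H1f5 had 959 CPM in KO against 389 CPM in WT (2.47, 2.41 to 2.52), H1f1 61.2 and 21.3 CPM (2.87, 2.63 to 3.14) and H2ac24 698 and 1209 CPM (0.577, 0.567 to 0.587). Of 53 measured members there, H1f5 and H1f1 were at least 2-fold higher in KO, beside 18.8% of 11456 genes, and 21 were lower, beside 4.87%.

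**Figure D5:**
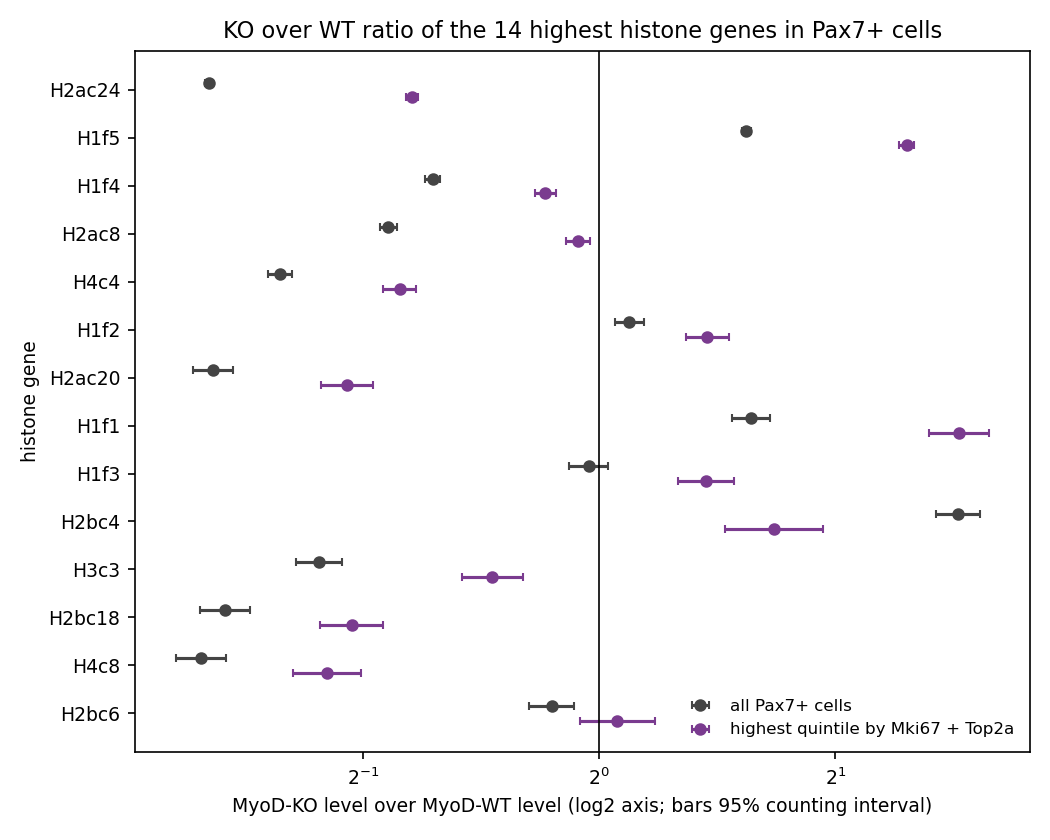
Ratio of KO to WT level (log2 axis) for the 14 members with the most UMIs, in all Pax7+ cells and in the highest Mki67 plus Top2a quintile of each library; bars are 95% counting intervals. In all Pax7+ cells the ratios run from 0.311 for H4c8 to 2.87 for H2bc4, and in the highest quintile from 0.450 for H4c8 to 2.87 for H1f1.

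The clones thus differed in how their Pax7+ cells spread over the classes. Pooled over all Pax7+ cells, 0 of 25 G2 and mitosis genes were at least 2-fold higher and 1 lower in KO, and 0 and 2 of 38 replication genes. Of all genes measured so, 19.1% were higher and 4.68% lower in KO. Slbp had 93.6 CPM in KO against 96.3 CPM in WT. Marker sums did differ. The 8 progenitor markers, Pax7 among them, summed to 896 CPM in KO against 465 CPM in WT Pax7+ cells. The 6 myocyte markers summed to 2835 CPM in KO against 524 CPM in WT. Most of the myocyte sum over both libraries came from 1 gene. This was the cell cycle inhibitor gene Cdkn1c, with a mean of 1569 CPM over both libraries. The next highest on the list, Hes6, had a mean of 57.4 CPM. Myog, held low by the gate, had 14.5 CPM in KO against 12.6 CPM in WT. Markers of other cells differed as well. The 9 fibroblast markers summed to 870 CPM in KO Pax7+ cells, with 6 of them at 2 CPM or more and none at 0, and to 101 CPM in WT ones, with 3 at 2 CPM or more and Lum at 0. The 6 smooth muscle markers summed to 179 CPM in KO, with 4 at 2 CPM or more, and to 826 CPM in WT, also with 4. By mitosis quintiles the fibroblast sum was 821 CPM in the highest and 1118 CPM in the lowest KO quintile, and 107 and 139 CPM in WT. Immune markers summed to 2.27 CPM in KO against 2.45 CPM in WT, and endothelial ones to 1.02 and 1.07 CPM, with Kdr and Tie1 at 0 in both. The part of any of these marker lists in the KO to WT difference of the histone genes was not tested.

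In muscle-rich cells the sum was higher in KO, at 689 CPM against 405 CPM in WT (1.70, 1.67 to 1.73). Of 17 measured members 3 were at least 2-fold higher in KO (H4c9, H2bc4 and H1f2), beside 14% of 11117 genes, and 4 lower (H2ac20, H2ac24, H2ac8 and H4c4), beside 8.03%. H2bc4 had a ratio of 3.00 (2.92 to 3.08), H1f2 of 3.48 (3.28 to 3.70) and H4c9 of 3.15 (2.81 to 3.53). H2ac24, at 14.2 CPM in KO against 96.0 CPM in WT, had a ratio of 0.148 (0.136 to 0.160). The WT muscle-rich cells also held more cycle genes, with Mki67 plus Top2a at 32.6 CPM in KO against 66.0 CPM in WT, and a smaller share of them had passed the last step of 10% contractile UMIs (565 of the KO and 193 of the WT cells). Their fibroblast markers summed to 108 CPM (KO) and 18.0 CPM (WT), and their smooth muscle markers to 959 and 2476 CPM. The part of any of these in the difference was not tested.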

How the data were processed

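Single-cell RNA was measured in 1 MyoD-KO and 1 MyoD-WT library (3′ v3.1 chemistry, primed on poly(A), per the labels). The deposited values are UMI counts per gene and barcode, which the authors made with Cell Ranger (7.2.0 in the file header); Cell Ranger, Seurat and GRCm39 are in the submitters' processing notes, and the annotation release is not given in the sources used here. Barcodes with at least 1000 genes, at most 15% mitochondrial UMIs and no Scrublet call were kept (scanpy 1.11.5); Scrublet called 144 KO barcodes but 2 WT ones (0.0273%), so WT doublets were in effect not removed. Counts were summed by library and gate and scaled to 1000000 UMIs of the same cells (CPM). Levels have exact Poisson 95% intervals, ratios intervals conditional on the summed count, shares exact Clopper-Pearson intervals in the tables. A gene was called at 2-fold with 2 CPM or more in the higher group. Library totals were 282739488 UMIs in 7670 KO and 285232252 UMIs in 8191 WT barcodes. Named members were the 14 highest in Pax7+ cells, the highest of each family and those 2-fold apart between clones; of other lists, the 4 highest genes each. Members and lists were chosen with earlier results of these data known. Alternatives are listed at the end. Matrix arithmetic used numpy 2.4.6, scipy 1.17.1 and pandas 2.3.3.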

Additional observations from a re-analysis of the deposited data

Results flagged for a closer look

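Some members went opposite ways in the clones, with counting intervals that exclude 1 in both; the difference between the clones was not tested. Along the Cdc6, Ung, Ccne2 and Hells rank, the ratio of the highest to the lowest quintile was 1.22 in KO and 0.389 in WT for H1f5, and 1.86 in KO and 0.683 in WT for H1f1, both linker histone genes. For the H2A gene H2ac22 it was 1.65 in KO and 0.525 in WT, and for the H3 gene H3c4 it was 1.498 in KO and 0.809 in WT. With each gene left out of the rank in turn, added after seeing the data, the KO ratio ran from 0.857 to 1.47 for H1f5, from 1.20 to 2.25 for H1f1, from 1.17 to 2.14 for H2ac22 and from 1.11 to 1.66 for H3c4. So the direction of H1f5 in KO turned round without Ccne2, and without it the KO intervals of H2ac22 (0.861 to 1.60) and H3c4 (0.862 to 1.43) took in 1. The WT ratios stayed under 1 for these 4 members, and H1f1 without Hells was at 0.987 (0.872 to 1.12). In muscle-rich against Pax7+ cells, the H4 gene H4c8 had a ratio of 1.37 in KO and 0.296 in WT.

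Barcodes left out by the filters also held histone UMIs, with a summed level of 669 CPM in KO and 290 CPM in WT.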

How the results depend on the processing

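Of 77 alternative values of the 9 summed ratios, 18 moved by less than the counting interval, 57 moved by more and 2 reversed. The reversed ones set muscle-rich cells against the lowest quintile by Mki67 and Top2a, at 4.18 in KO and 1.16 in WT; this comparison, the sum without H2bc4 and the Mki67 plus Top2a classes were chosen after seeing the data. No paired analysis was possible because there was 1 library for each genotype.

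Along the Cdc6, Ung, Ccne2 and Hells rank, the KO ratio of 0.998 was 0.979 with all deposited barcodes, 1.03 without the 6% highest doublet scores, 1.07 as a mean over cells, 0.909 with Pax7+ from 4 UMIs, 0.902 without the member with the most UMIs and 1.14 by deciles. With Cdc6, Ung, Ccne2 or Hells left out of the rank it was 1.08, 1.06, 0.736 and 1.23. The WT ratio of 0.401 was 0.393, 0.414, 0.434, 0.386 and 0.347 under the same settings in that order from the doublet scores on, 0.389 with 20000 to 60000 UMIs, and 0.417, 0.436, 0.353 and 0.540 with each gene left out. Along the Mki67 and Top2a rank, the KO ratio was 12.8 without the top member, 20.1 by deciles and 18.0 with 20000 to 60000 UMIs. In WT it was 9.04 as a mean over cells, 6.63 from 4 Pax7 UMIs, 8.15 without the top member and 14.2 by deciles.

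Myog+ against Pax7+ cells gave 0.397 from 4 Pax7 UMIs, 0.432 without the top member and 0.382 from 20 Myog UMIs in KO, and 0.406, 0.442 and 0.422 in WT, where the mean over cells gave 0.398. Muscle-rich against Pax7+ cells gave 0.604 without the highest doublet scores, 0.728 as a mean over cells, 0.581 from 4 Pax7 UMIs, 0.906 without the top member, 0.595 and 0.645 with the gate at 1% and 6%, and 0.211 without H2bc4 in KO. In WT these were 0.154, 0.198, 0.194, 0.284, 0.257, 0.187 and 0.130. KO against WT Pax7+ cells gave 0.552 as a mean over cells, 0.568 from 4 Pax7 UMIs and also with median ratio scaling, 0.781 without the top member, and 0.519, 0.307, 0.429, 0.820 and 0.925 in the 4 classes and the highest quintile. The top member was H2ac24 here and in the comparisons within WT, and H1f5 in those within KO.

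With a minimum of 10 CPM, KO counts of members were 1 lower by the replication rank, 22 higher by the mitosis rank, 9 lower in Myog+ and 9 lower and 3 higher in muscle-rich cells. WT counts were 18, 24, 16, 18 and 1, and 11 were lower in KO than in WT. With no minimum, 7, 34 and 45 KO members were lower by the replication rank, in Myog+ and in muscle-rich cells, and 9 were lower by the replication rank at 1.5-fold. Capture of mRNAs without poly(A) limits all levels.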
